A study of Mus musculus with 32 samples.

Results

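The response of the transcriptome to 12 h of the auxin indole-3-acetic acid (IAA) was described in control cells of an overexpression experiment. The comparison rests on 4 of the 32 libraries of the series, 2 from treated and 2 from untreated cells, and on every gene that averaged 10 or more across the 12 libraries of the overexpression table, which was true of 13938 of the 14970 genes listed. E14 is a line of mouse embryonic stem cells. All 4 libraries came from E14 cells whose genotype is given as CTCF AID with an overexpressed control, so that treated and untreated cells alike carried both the degron and the control construct. The 2 untreated libraries (oectrl replicates 1 and 2) received no IAA and the 2 treated libraries (oectrl_IAA replicates 1 and 2) received 500 uM IAA for 12 h. The growth protocol describes gelatin-coated dishes and a serum-free medium with leukemia inhibitory factor, the MEK inhibitor PD0325901 and the GSK3 inhibitor CHIR99021. The labels do not say what the control construct encodes, how it was delivered or whether the cells were 1 clone, and nothing in them says that the 2 libraries of a group came from separate cultures. The p-values below therefore measure the spread between libraries within groups, pooled over all 12 libraries of the overexpression table, and this spread may be technical.

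CTCF is a zinc finger protein that binds DNA at very many sites, many of them next to promoters, and stops cohesin as it extrudes chromatin loops. The auxin-inducible degron (AID) is a tag through which an auxin, together with a plant ubiquitin ligase subunit, sends the tagged protein for destruction within hours, while its mRNA need not change. Embryonic stem cells lacking CTCF for a short time lose loop anchors and domain borders, and the clustered protocadherin promoters are textbook examples of promoters that need bound CTCF. The control cells ask what IAA does when no extra CTCF is supplied. They stand beside cells of the same table in which wild-type or mutated CTCF was overexpressed, and for those cells 4 libraries carry a treatment label that goes against their title. Titles were followed. None of the 4 control libraries is affected, and a fit without the 4 in question called 1621 genes higher and 1602 lower in control cells, but no value for either construct can be had without them.

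The 4 control libraries had totals of 19073890 to 19154810 normalised counts, and 35 to 78 of the 14970 genes were listed at 0 in each. Replicate libraries correlated across genes with r of 0.987 without and 0.988 with IAA on the log2 scale, against 0.972 to 0.976 between the groups. All 10 embryonic stem cell markers were present, with summed levels of 129786 and 128609 normalised counts without IAA and 122241 and 122982 with it. Of 8 fibroblast or feeder markers 3 were listed (summed level 89.5 to 130 in all 4 libraries), and Col1a2, Col3a1, Postn, Dcn and Lum were not. Neural markers, of which 4 of 6 were listed, summed to 2263 and 2340 normalised counts without IAA and to 3761 and 3649 with it. Nes and Tubb3 were called higher, Sox1 went from 90.7 and 90.0 to 54.3 and 60.2 and Map2 from 72.0 and 79.8 to 67.2 and 74.5, neither called, and over the 9 neural lineage genes tested the median log2 difference was -0.18. Primitive endoderm markers (6 of 8 listed, without Sox17 and Sox7) summed to 85.1 to 96.4 without IAA and 159 to 176 with it. Pdgfra, which went from 32.6 and 13.2 to 61.5 and 71.9, made up most of this difference and lost its call without untreated replicate 2 or treated replicate 2, while Gata6 was at 7.53 and 1.00 without IAA and 7.94 and 3.21 with it. Of 8 primitive endoderm genes tested 1 was called, and their median log2 difference was -0.07. The part of other cell types in the results was not tested, and in bulk RNA fewer cells of a type and less RNA per cell cannot be told apart.

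Ctcf mRNA (ENSMUSG00000005698.15, chr8:105636568-105682922, plus strand) was examined first. It was at 4134 and 4332 normalised counts without IAA and 5185 and 5098 with it in control cells. Both treated libraries were higher than both untreated ones (log2 difference 0.28, SE 0.03, limma adjusted p 0.000112). The degron acts on the protein, so this value does not check that CTCF was lost. Exons of other genes overlap Ctcf on the opposite strand, and the labels do not state whether counting used strand.

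IAA changed many genes in control cells, most of them by a small amount. A gene was called where limma, fitted to log2(normalised count + 1) over all 12 libraries, gave a Benjamini-Hochberg adjusted p under 0.05. It called 3530 of 13938 genes (25.3%), 1784 higher (12.8%) and 1746 lower (12.5%). Without treated replicate 2 the genes called higher were 1124. The median log2 difference was 0.37 among genes called higher and -0.42 among those called lower, and it was -0.00 over all genes tested. Of the called genes, 256 rose and 293 fell by at least 2-fold (1.84% and 2.1% of genes tested), and 43 rose and 76 fell by at least 4-fold. The libraries of the 2 groups did not overlap for any of the 3530 called genes, as for 63.7% of all genes tested. The share called grew with the level of the gene, from 5.90% higher and 5.92% lower at a mean of 10 to 100 normalised counts to 20.4% and 17.7% at 1000 or more, where the median SE was 0.053 against 0.38 in the lowest class. Falls of at least 2-fold were more numerous than rises at a mean of 100 to 1000 (123 against 71) and less numerous below it (156 against 176). Protein-coding genes were called at 13.6% higher and 13.5% lower, and long non-coding genes at 6.67% and 2.60%. The gene lists below are set beside shares over all genes and were not matched for level.

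**Figure D1:**
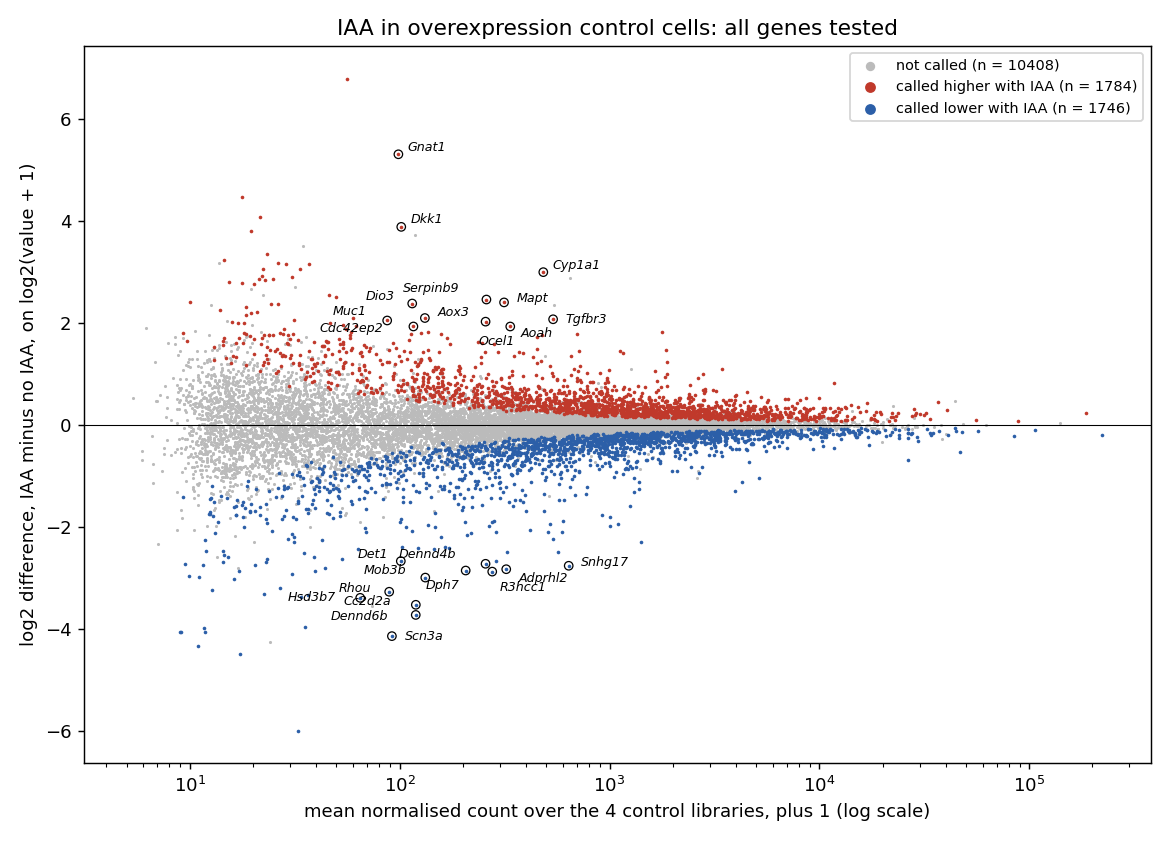
Log2 difference with IAA (vertical axis, on log2(value + 1)) against the mean normalised count over the 4 control libraries plus 1 (log axis), 1 point for each of 13938 genes, red where called higher (1784), blue where called lower (1746) and grey otherwise. The 24 genes with the largest rises and falls that met the rule for naming are circled, from Gnat1 at 5.30 to Scn3a at -4.14.

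The rises described one by one are the largest 12 whose higher group averaged 100 normalised counts or more, whose groups did not overlap and whose symbol is not provisional. Gnat1 (ENSMUSG00000034837.12, chr9:107674474-107679712, minus strand), the transducin alpha subunit of rod photoreceptors, was at 4.48 and 3.24 normalised counts without IAA and 160.3 and 222 with it (log2 difference 5.30, SE 0.84, limma adjusted p 0.00105). Dkk1 (chr19:30545863-30549665, minus strand), a secreted inhibitor of Wnt signalling, was at 11.4 and 12.5 normalised counts without IAA and 182 and 198 with it (log2 difference 3.88, SE 0.23, limma adjusted p 1.22e-06). Both were close to the bottom of the scale without IAA and well above 100 in both treated libraries. Cyp1a1 (chr9:57687928-57703824, plus strand), a cytochrome P450 that is the classical target of the aryl hydrocarbon receptor, was at 109 and 105 normalised counts without IAA and 883 and 833 with it (log2 difference 2.99, SE 0.10, limma adjusted p 2.35e-08). Serpinb9 (chr13:33003250-33017957, plus strand), an inhibitor of granzyme B, was at 80.4 and 77.4 normalised counts without IAA and 426 and 449 with it (log2 difference 2.45, SE 0.13, limma adjusted p 3.41e-07). Of these 4 genes Gnat1 had the largest SE and Cyp1a1 the smallest.

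Genes of several other roles followed. Mapt (chr11:104231390-104332090, plus strand), which encodes the microtubule-binding protein tau, was at 73.9 and 131 normalised counts without IAA and 501 and 548 with it (log2 difference 2.40). Dio3 (chr12:110279068-110281097, plus strand), the deiodinase that inactivates thyroid hormone and an imprinted gene, was at 29.5 and 43.7 normalised counts without IAA and 189.9 and 192 with it (log2 difference 2.38). Aox3 (chr1:58113130-58200698, plus strand), an aldehyde oxidase, was at 51.4 and 46.8 normalised counts without IAA and 202 and 223 with it (log2 difference 2.09). In these 3 genes every treated library stood far above both untreated ones. Tgfbr3 (chr5:107106570-107289629, minus strand), the coreceptor betaglycan of the TGF-beta family, went from 188 and 226 to 841 and 894 (log2 difference 2.07), with exons of a provisional gene on its strand. Cdc42ep2 (chr19:5915636-5924816, minus strand), an effector of the GTPase Cdc42, went from 41.9 and 53.4 to 191 and 175 (log2 difference 1.93). Aoah (chr13:20794113-21036617, plus strand), a hydrolase that deacylates bacterial lipopolysaccharide, went from 138 and 140.2 to 526 and 537 (log2 difference 1.93). Ocel1 (chr8:71371298-71379361, plus strand), which shares exonic sequence with Nr2f6 on the opposite strand, went from 80.8 and 124 to 406 and 412 (log2 difference 2.02). The mucin gene Muc1 (chr3:89229057-89233381, plus strand) went from 54.1 and 18.7 to 151 and 121 (log2 difference 2.04, SE 0.42, limma adjusted p 0.00476), and it rested on an untreated library at 18.7, without which the log2 difference was 1.30. All 12 rises kept their call in every setting in which they were fitted.

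The 12 largest falls, chosen by the same rule, included genes of many roles. Scn3a (ENSMUSG00000057182.15, chr2:65457118-65567627, minus strand), a voltage-gated sodium channel, was at 216 and 129 normalised counts without IAA and 6.17 and 11.7 with it (log2 difference -4.14, SE 0.56, limma adjusted p 0.000342). Dennd6b (ENSMUSG00000015377.10, chr15:89182213-89196496, minus strand), a DENN-domain protein with a microRNA gene inside its exons, was at 238 and 203 normalised counts without IAA and 11.6 and 21.1 with it (log2 difference -3.72, SE 0.26, limma adjusted p 4.01e-06). Treated cells kept 5.19% and 7.43% of the untreated means. Cc2d2a (chr5:43662346-43740972, plus strand), a protein of the ciliary transition zone, was at 187 and 250.3 normalised counts without IAA and 17.0 and 18.9 with it (log2 difference -3.52, SE 0.19, limma adjusted p 4.03e-07). Hsd3b7 (chr7:127800604-127803802, plus strand), an enzyme of bile acid synthesis whose exons overlap other genes on both strands, was at 129.8 and 105 normalised counts without IAA and 9.84 and 10.7 with it (log2 difference -3.39). Rhou (chr8:123653929-123663884, plus strand), an atypical small GTPase, was at 185 and 136 normalised counts without IAA and 14.6 and 16.6 with it (log2 difference -3.27). In these 3 genes both treated libraries stood near the bottom of the scale and far below both untreated ones.

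Adprhl2 (chr4:126316047-126321703, minus strand), the hydrolase that removes ADP-ribose from serines, was at 582 and 545 normalised counts without IAA and 79.2 and 77.7 with it (log2 difference -2.83, SE 0.09, limma adjusted p 1.60e-08), so that treated cells kept 13.9%. Dph7 (chr2:24962400-24972163, plus strand), an enzyme of the diphthamide pathway that modifies elongation factor 2, went from 352 and 371 to 50.4 and 47.9 (log2 difference -2.85). Det1 (chr7:78821547-78847263, minus strand), a component of a ubiquitin ligase, went from 194 and 153 to 20.5 and 33.5 (log2 difference -2.67), with exons of another gene on the opposite strand. In all 3 the gap between the groups was larger than the gap between replicates. Snhg17 (chr2:158353700-158361580, minus strand), a host gene of small nucleolar RNAs from which reads of those RNAs could be counted too, went from 1095 and 1129 to 175 and 152 (log2 difference -2.76). The DENN-domain gene Dennd4b (chr3:90265185-90280669, plus strand) went from 453 and 436 to 71.6 and 61.9 (log2 difference -2.72). Mob3b (chr4:34949074-35157484, minus strand), of the MOB family of kinase adaptors, went from 225 and 244 to 29.8 and 27.4 (log2 difference -2.99), and R3hcc1 (chr14:69697307-69707584, minus strand) went from 532 and 438 to 66.4 and 63.6 (log2 difference -2.87). All 12 falls kept their call in every setting in which they were fitted.

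**Figure D2:**
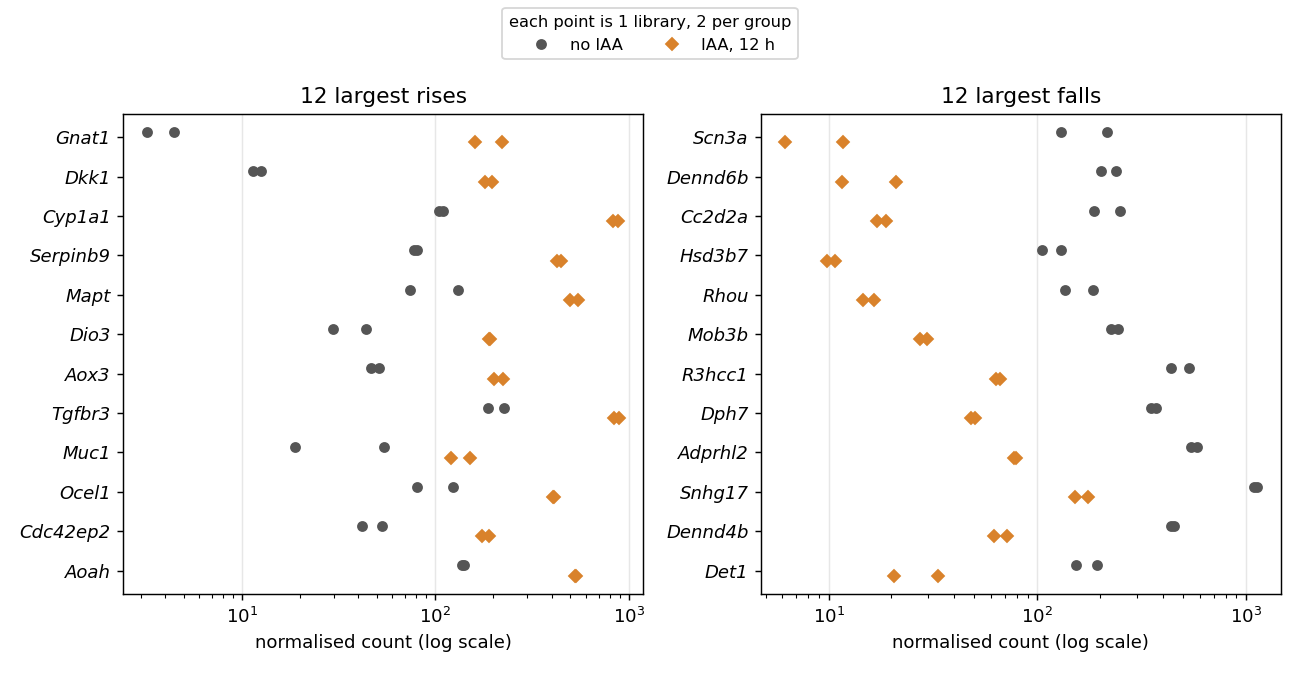
Normalised counts (log axis) of the 12 genes with the largest rises (left) and the 12 with the largest falls (right), 1 point per library, circles without IAA and diamonds with 12 h of IAA. No gene has overlapping groups, and the 2 untreated Muc1 libraries (54.1 and 18.7) are the most widely spaced pair among the rises.

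Promoter sequences were on hand for 10 of the 12 falls and 9 of the 12 rises, as 250 bases before and 50 after the start site in RefSeq on GRCm38.p6. They were searched on both strands for a short core of the CTCF motif, CCA NN AG NN GGC, where N is any base. It was in 3 of the 10 falls and 1 of the 9 rises, beside 797 of the 32851 promoters of that length in RefSeq (2.43%). The 32851 were not limited to genes tested here and hold several entries for some genes, so they are no matched background. Whether the shares differ was not tested. A comparison of all called genes with all genes tested was not made, because a sequence was on hand for only 74.0% of genes tested. It was on hand for 77.7% of genes called higher, 76.7% of those called lower and 69.3% of those that fell at least 2-fold. The 250 bases before the start site are given below for the 4 promoters with a match, on the strand of the gene and 5′ to 3′, since they show where the core lies in genes named above. Capitals mark the core. It begins 180 bases before the start in Dennd6b (chr15:89196475-89196724, minus strand), 101 in Hsd3b7 (chr7:127800359-127800608, plus strand), 56 in Adprhl2 (chr4:126321704-126321953, minus strand) and 149 in Aox3 (chr1:58112886-58113135, plus strand).
Dennd6b: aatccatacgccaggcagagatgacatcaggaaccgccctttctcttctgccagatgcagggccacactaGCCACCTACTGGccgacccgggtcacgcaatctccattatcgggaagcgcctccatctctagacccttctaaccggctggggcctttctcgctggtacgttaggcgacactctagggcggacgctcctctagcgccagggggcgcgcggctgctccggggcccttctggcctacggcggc
Hsd3b7: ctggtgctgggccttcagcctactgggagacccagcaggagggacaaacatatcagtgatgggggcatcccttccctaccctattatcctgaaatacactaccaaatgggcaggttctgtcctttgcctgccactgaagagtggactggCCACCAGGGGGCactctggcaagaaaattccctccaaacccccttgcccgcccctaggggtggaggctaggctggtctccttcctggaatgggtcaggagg
Adprhl2: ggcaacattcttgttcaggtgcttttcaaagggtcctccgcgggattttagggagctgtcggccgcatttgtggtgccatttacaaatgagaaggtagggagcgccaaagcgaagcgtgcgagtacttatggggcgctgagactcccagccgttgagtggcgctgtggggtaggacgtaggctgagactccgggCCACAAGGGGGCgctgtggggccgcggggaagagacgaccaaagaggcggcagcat
Aox3: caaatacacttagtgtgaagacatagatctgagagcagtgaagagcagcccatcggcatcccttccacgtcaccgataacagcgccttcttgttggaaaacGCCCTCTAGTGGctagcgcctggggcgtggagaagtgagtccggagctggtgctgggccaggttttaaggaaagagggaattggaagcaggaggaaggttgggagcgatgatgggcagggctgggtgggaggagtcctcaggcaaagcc
In Hsd3b7 and Adprhl2 the core reads on the strand shown, as CCACCAGGGGGC and CCACAAGGGGGC. In Dennd6b and Aox3 it reads on the other strand, where the strand shown has GCCACCTACTGG and GCCCTCTAGTGG. A match is a description and does not show that CTCF bound there, and its absence says only that these letters are not in the window.

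Genes that organise chromatin and the genes CTCF is best known to control were examined next. Of 15 clustered protocadherins tested, which encode neuronal cell surface proteins from arrays of alternative promoters, 11 fell, 0 rose and the median log2 difference was -2.43, beside 12.5% of all genes called lower. All 15 belong to the gamma cluster, so the other clusters were not compared here, and each of the 11 fell at least 2-fold. The 4 that were not called were Pcdhga12 (-0.39), Pcdhgc3 (-0.25), Pcdhgc4 (0.09) and Pcdhgc5 (-0.23). Pcdhga1 was at 62.8 and 43.6 normalised counts without IAA and 6.72 and 5.46 with it (log2 difference -2.92, SE 0.28, limma adjusted p 3.23e-05) and Pcdhga11 at 91.6 and 119 normalised counts without IAA and 22.1 and 15.6 with it (log2 difference -2.43, SE 0.40, limma adjusted p 0.00135). Pcdhga2 was at 43.6 and 20.9 normalised counts without IAA and 0.921 and 0 with it, Pcdhga7 at 25.0 and 14.8 normalised counts without IAA and 0 and 0 with it and Pcdhga4 at 19.8 and 22.8 normalised counts without IAA and 0.804 and 0 with it. Against a floor of 3 normalised counts over the group these were at least 10.8-fold, 6.63-fold and 7.11-fold lower. Levels were low throughout, the genes of the cluster share their last exons so that their values are uncertain, and 8 to 10 fell when a library was left out. In the 18 tested genes for CTCF, cohesin and their partners 5 rose (27.8%, beside 12.8% of all genes) and 1 fell, and no member changed by 2-fold. The cohesin subunit gene Stag1 went from 4256 and 4110.4 to 5477 and 5365 (log2 difference 0.37) and Maz, a zinc finger factor found beside CTCF, went from 3950.0 and 3631 to 4672 and 4578 (log2 difference 0.29). Smc3 (0.10) and Pds5b (0.20) were no longer called without untreated replicate 2, treated replicate 1 or treated replicate 2 (lowest values 0.09 and 0.18), each of which left 3 rises. The member that fell was Esco2, the acetyltransferase of cohesin, at -0.15, and without treated replicate 2 there were 2 falls.

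Xenobiotic and redox genes included some of the largest rises. Of 13 tested genes for the aryl hydrocarbon receptor, a ligand-activated transcription factor, and its targets, 6 rose (46.2%, beside 12.8% of all genes) and 3 fell (23.1%, beside 12.5%), with a median log2 difference of 0.82. Besides Cyp1a1 and Serpinb9, Cyp1b1 was at 6.37 and 6.66 normalised counts without IAA and 66.8 and 64.9 with it (log2 difference 3.15, SE 0.34, limma adjusted p 7.31e-05). Cyp1a2, the gene next to Cyp1a1, was at 2.95 and 4.39 normalised counts without IAA and 52.8 and 16.9 with it (log2 difference 2.75) and lost its call without treated replicate 1 (1.96, limma adjusted p 0.0828) or untreated replicate 1 (2.52, limma adjusted p 0.0521). Nqo1, a quinone reductase, went from 1840.0 and 1815 to 3499.9 and 3451 (log2 difference 0.93). The receptor gene Ahr itself went from 303 and 301 to 215 and 218 (log2 difference -0.48) and Tiparp, an ADP-ribosyltransferase that represses the receptor, from 1262 and 1328 to 852 and 782 (log2 difference -0.67). The repressor gene Ahrr was at 11.8 and 50.8 normalised counts without IAA and 26.3 and 206 with it, with replicates so far apart that its difference was not called (limma adjusted p 0.360). Of 15 tested genes of the NRF2 and glutathione list, the defence against oxidants and electrophiles, 10 rose (66.7%) and 0 fell. Srxn1, which repairs oxidised peroxiredoxins, went from 1274 and 1219.7 to 2449.7 and 2544 (log2 difference 1.00), Gclm, a subunit of the glutathione-synthesising ligase, from 1814 and 1959.5 to 2659 and 3114 (log2 difference 0.61), and the thioredoxin reductase Txnrd1 from 8104 and 8178 to 11815 and 11559 (log2 difference 0.52). The cystine transporter gene Slc7a11 was at 13.4 and 22.7 normalised counts without IAA and 43.3 and 40.5 with it and lost its call without untreated replicate 1 (0.85, limma adjusted p 0.150), treated replicate 1 (1.17) or treated replicate 2 (1.26). Nqo1, Ahr, Tiparp and Ahrr were picked from the list after their values were seen.

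Pluripotency genes moved in both directions. Of 16 naive factors 3 rose (18.8%) and 6 fell (37.5%), beside 12.8% and 12.5% of all genes, the rest not being called, and the differences lay between -0.60 for Nr0b1 and 1.35 for Dppa3. Dppa3, a maternal factor that guards against DNA methylation, was at 376 and 363 normalised counts without IAA and 938 and 951 with it (log2 difference 1.35, SE 0.10, limma adjusted p 4.82e-06), and it was the only one to change 2-fold. The transcription factor genes Tfcp2l1 and Nr5a2 also rose (0.24 and 0.22). Falls were those of Nr0b1, of the threonine dehydrogenase gene Tdh (-0.46), of Dppa5a (-0.32), Klf5 (-0.25) and Esrrb (-0.20), and of Tcl1 (-0.14), which lost its call whichever control library was left out (-0.15 to -0.13). Nanog, Klf4, Klf2, Tbx3, Zfp42, Fgf4 and Prdm14 were not called, with differences of 0.06, 0.12, 0.09, 0.05, -0.01, -0.03 and -0.10. Of 14 core and formative genes 2 rose (14.3%) and 6 fell (42.9%). Utf1, a chromatin factor of undifferentiated cells, was at 498 and 495 normalised counts without IAA and 79.4 and 76.1 with it (log2 difference -2.66, SE 0.13, limma adjusted p 3.02e-07), much the largest change of the list. Sox2 went from 7507 and 7200.2 to 5948 and 5781 (log2 difference -0.33), while Sall4 went from 4193 and 4206 to 5322 and 5182 (0.32). Of 23 germline genes 8 rose (34.8%) and 0 fell (4 rises without untreated replicate 2 and 5 without treated replicate 2). Mael, of the piRNA pathway, was at 32.2 and 61.2 normalised counts without IAA and 139.8 and 133 with it (log2 difference 1.60, SE 0.28, limma adjusted p 0.00202), and the RNA-binding protein genes Ddx4 and Dazl rose by 0.80 and 0.67 on the log2 scale.

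Signalling lists were set beside the same shares over all genes, 12.8% higher and 12.5% lower. In the FGF-ERK list 4 of 24 rose (16.7%) and 7 fell (29.2%). The receptor gene Fgfr2 was at 101 and 73.2 normalised counts without IAA and 249 and 268 with it (log2 difference 1.58, SE 0.18, limma adjusted p 0.000105), and Dusp6, a phosphatase that is induced by ERK and opposes it, at 274 and 247 normalised counts without IAA and 84.0 and 119 with it (log2 difference -1.37, SE 0.22, limma adjusted p 0.000983). Spry4, another feedback inhibitor, was at 55.8 and 52.4 normalised counts without IAA and 26.7 and 20.1 with it (log2 difference -1.19) and lost its call whichever control library was left out (-1.39 to -0.99). In the BMP and Nodal list 5 of 24 rose (20.8%) and 6 fell (25.0%). The rises became 3 without treated replicate 1, and the falls became 3 without untreated replicate 1 or treated replicate 2. Follistatin (Fst), which captures activins, was at 217 and 252 normalised counts without IAA and 64.1 and 51.7 with it (log2 difference -2.001, SE 0.16, limma adjusted p 9.51e-06), and Id3, a direct target of BMP signalling, at 117 and 91.0 normalised counts without IAA and 31.5 and 32.7 with it (log2 difference -1.66, SE 0.19, limma adjusted p 0.000138). In the Wnt list 6 of 26 rose (23.1%) and 5 fell (19.2%), among them Dkk1 and the secreted modulator gene Sfrp2, which went from 278 and 263 to 632 and 621 (log2 difference 1.21). T, the mesoderm factor brachyury, went from 98.4 and 84.1 to 41.9 and 46.7 (log2 difference -1.02). It was the 1 fall among 5 tested genes of the mesoderm and T-box list, where 1 rose and the median log2 difference was 0.61. In the list of the LIF response, through STAT3, 6 of 15 rose (40%) and 2 fell (13.3%), with Socs3, its feedback inhibitor, going from 1314 and 1298 to 2138 and 2061 (log2 difference 0.68) and Stat3 from 2332 and 2474 to 2961 and 3041 (log2 difference 0.32).

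Metabolic and biosynthetic lists were read against the 12.5% of all genes called lower and the 12.8% called higher. These shares were 17.7% and 20.4% among genes with a mean of 1000 or more, and the lists were not matched for level. Of 23 cholesterol synthesis genes 15 fell (65.2%) and 0 rose, with a median log2 difference of -0.27 and the lowest at -0.48, and 14 fell whichever library was left out. Lss went from 5196 and 5211 to 3761 and 3749 (log2 difference -0.47), Stard4, a sterol carrier, from 4564 and 4736 to 3332 and 3404 (-0.47) and Mvd from 1293 and 1189.9 to 885 and 918 (-0.46). Of 87 cytosolic ribosomal protein genes 37 fell (42.5%) and 2 rose, with a median of -0.08. The 37 became 22 without treated replicate 2 and 19 without treated replicate 1. Among those that fell were Rpl36 (-0.51) and Rpl36a (-0.34), and reads of these genes may be shared with their pseudogenes. Of 79 nuclear genes of the respiratory chain 21 fell (26.6%, and 13 without treated replicate 1 or 2) and 1 rose, with Ndufb7 going from 803 and 793 to 479 and 486 (log2 difference -0.72) and Cox6b2 from 660.2 and 612 to 401 and 377 (-0.71). Of 77 mitochondrial ribosomal protein genes 5 fell (6.49%) and 4 rose (5.19%), both below the shares over all genes. Of these 2 fell without treated replicate 1 or 2, 1 rose without untreated replicate 2 and 2 rose without treated replicate 1 or 2. The falls of 2 were large and were called in every setting. Mrps2 was at 2329 and 2379 normalised counts without IAA and 467 and 497 with it (log2 difference -2.29, SE 0.05, limma adjusted p 1.58e-09) and Mrpl23 at 197 and 172 normalised counts without IAA and 40.1 and 45.6 with it (log2 difference -2.08, SE 0.18, limma adjusted p 1.46e-05). Quantile normalisation lowered the 37 to 31.

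Stress, growth and death genes completed the lists, again beside 12.8% higher and 12.5% lower over all genes. Of 30 genes of the integrated stress response 10 rose (33.3%) and 3 fell (6 rose without untreated replicate 2 or treated replicate 1, and 5 without treated replicate 2), and the pseudokinase gene Trib3 went from 582 and 596 to 943 and 904 (log2 difference 0.65). Among 20 genes of protein folding and heat shock 6 rose (30.0%) and 4 fell (1 without untreated replicate 2, treated replicate 1 or treated replicate 2), with the chaperone genes Hspa1b going from 94.4 and 109.8 to 229 and 209 (1.09) and Hspa5 from 8358 and 8179 to 10527 and 10267 (0.33). Of 28 p53 targets 7 fell (25.0%) and 4 rose (14.3%, near the share over all genes, and 2 without untreated replicate 2 or treated replicate 1). Cdkn1a, the cell cycle inhibitor p21, was at 3542 and 3539 normalised counts without IAA and 2007 and 1967 with it (log2 difference -0.83, SE 0.04, limma adjusted p 1.81e-07), whereas the kinase gene Plk3 was at 135 and 113 normalised counts without IAA and 257 and 260.2 with it (log2 difference 1.06, SE 0.15, limma adjusted p 0.000478). Of 30 S phase genes 11 fell (36.7%) and 2 rose, with differences between -0.33 and 0.55 (7 fell without untreated replicate 1, and leaving out any of the other 3 libraries left 1 rise). Of 31 genes of G2 and mitosis 4 fell (12.9%, near the share over all genes) and 2 rose (6.45%). Of these 2 fell without untreated replicate 2 or treated replicate 2, and 0 or 1 rose whichever library was left out. In the apoptosis list 2 of 26 rose (1 whichever library was left out) and 5 fell (19.2%), and Bak1, which permeabilises the mitochondrial outer membrane, was at 1764 and 1704 normalised counts without IAA and 464 and 433 with it (log2 difference -1.95, SE 0.08, limma adjusted p 4.96e-08). In the hypoxia and glycolysis list 6 of 33 rose (18.2%) and 9 fell (27.3%). Slc2a3, a glucose transporter, went from 32248 and 32676 to 19976 and 20354 (-0.69), and Slc16a3, a lactate transporter, from 149.6 and 125 to 333 and 359 (1.33). Among 33 genes of the imprinted list, which does not hold Dio3, 3 rose (9.09%) and 8 fell (24.2%, with 4 without untreated replicate 2 and 5 without treated replicate 1). Peg10 went from 54.5 and 52.2 to 13.9 and 19.1 (-1.65) and Peg3 from 1249.9 and 1263 to 2389 and 2449 (0.94).

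**Figure D3:**
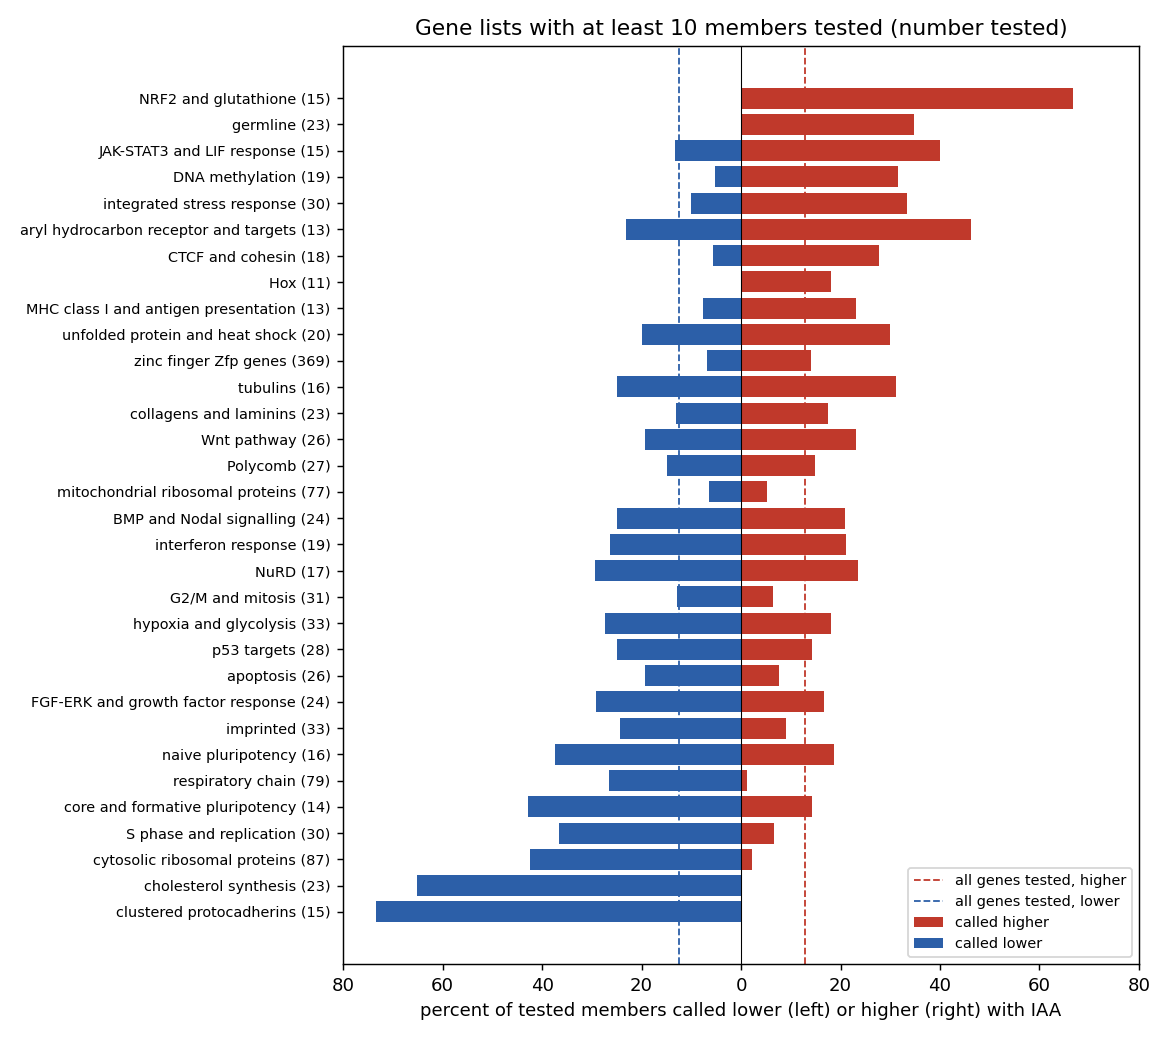
Percent of tested members called lower (blue, to the left) and higher (red, to the right) with IAA in control cells, for each list with at least 10 members tested (number tested in brackets), with dashed lines at the shares over all 13938 genes (12.5% lower, 12.8% higher). The NRF2 and glutathione list reaches 66.7% higher and the clustered protocadherins 73.3% lower.

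The IAA effect was then set against that in cells overexpressing wild-type or mutated CTCF, which had their own untreated libraries. Ctcf stood at 9275 and 9481 normalised counts in untreated cells with the wild-type construct and at 9589 and 9712 with the mutated one. Of the 256 genes that rose at least 2-fold in control cells, 123 (48.0%) were also called higher with wild-type and 117 (45.7%) with mutated CTCF, where 11.1% and 8.31% of all genes were called higher. Of the 293 that fell at least 2-fold, 139 (47.4%) and 118 (40.3%) were also called lower, beside 10.3% and 7.92% of all genes. With both constructs 90 of the rises and 91 of the falls were called the same way, and with neither 106 and 127. The median log2 difference of the 256 was 1.44 in control cells, 0.87 with wild-type and 0.88 with mutated CTCF, and that of the 293 was -1.49, -0.66 and -0.58. These genes were chosen for a large effect in control cells, which favours smaller effects elsewhere.

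A test of the difference between effects called 197 genes for wild-type CTCF (1.41% of genes tested) and 228 for mutated CTCF (1.64%). The 197 became 103 without untreated replicate 1, 127 without treated replicate 1 and 116 without treated replicate 2. Among the falls of at least 2-fold these were 77 (26.3%) and 73 (24.9%), and among the rises of at least 2-fold 7 (2.73%) and 10 (3.91%). The 77 became 50 without untreated replicate 1. The 7 became 1 without it, 2 without treated replicate 1 and 3 without treated replicate 2, and the 10 became 6 without any one of these 3. The difference between rises and falls was not tested, both interactions subtract the same control libraries, and the choice of genes by the control effect favours calls. Level differed too, with 176 of the 256 rises at a mean of 10 to 100 normalised counts, against 156 of the 293 falls. The median SE of the control effect at that level was 0.38, which limits what could be called there. Of the 12 largest falls, 11 had a called difference with each construct, and all of these except that of Hsd3b7 with mutated CTCF (1.53 to 1.83) stayed called whichever control library was left out. Adprhl2 went from 632 and 591 to 465 and 415 normalised counts with wild-type CTCF and from 509 and 546 to 470.2 and 479.9 with mutated CTCF, with differences from the control effect of 2.35 (SE 0.13, limma adjusted p 5.04e-06) and 2.68 (SE 0.13, limma adjusted p 1.31e-06). Snhg17 went from 1023 and 969 to 965 and 841 and from 1259 and 1404 to 875 and 975, with differences of 2.62 (SE 0.14, limma adjusted p 5.04e-06) and 2.23 (SE 0.14, limma adjusted p 7.62e-06). In treated cells both genes thus stood several times higher with either construct than in the control, where they were at 79.2 and 77.7 and at 175 and 152. Scn3a, the exception, had untreated libraries at 54.8 and 216 with wild-type CTCF and differences of 3.56 (SE 0.79, limma adjusted p 0.0577) and 1.62 (SE 0.79, limma adjusted p 0.440).

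Of the 12 largest rises, all were called higher with both constructs, and the difference from the control effect was called for Dkk1 and Aoah with wild-type and for Ocel1 and Aoah with mutated CTCF. Of these, only that of Aoah with mutated CTCF stayed called whichever control library was left out. Dkk1 went from 15.5 and 14.2 to 67.6 and 50.5 with wild-type CTCF and from 16.2 and 15.2 to 127 and 150.4 with mutated CTCF, with differences of -1.97 (SE 0.33, limma adjusted p 0.0149) and -0.81 (SE 0.33, limma adjusted p 0.340). Cyp1a1 went from 107 and 94.8 to 833 and 946 and from 142 and 138 to 1553 and 1429. Its differences of effects were 0.13 (SE 0.14, limma adjusted p 0.792) and 0.41 (SE 0.14, limma adjusted p 0.251), so the effects with the constructs were not shown to differ from that in control cells. For Cyp1b1 the log2 difference was 3.15 in control cells, 3.02 with wild-type and 3.48 with mutated CTCF. A positive difference of effects in a fall, and a negative one in a rise, mean that the effect was smaller with the construct.

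**Figure D4:**
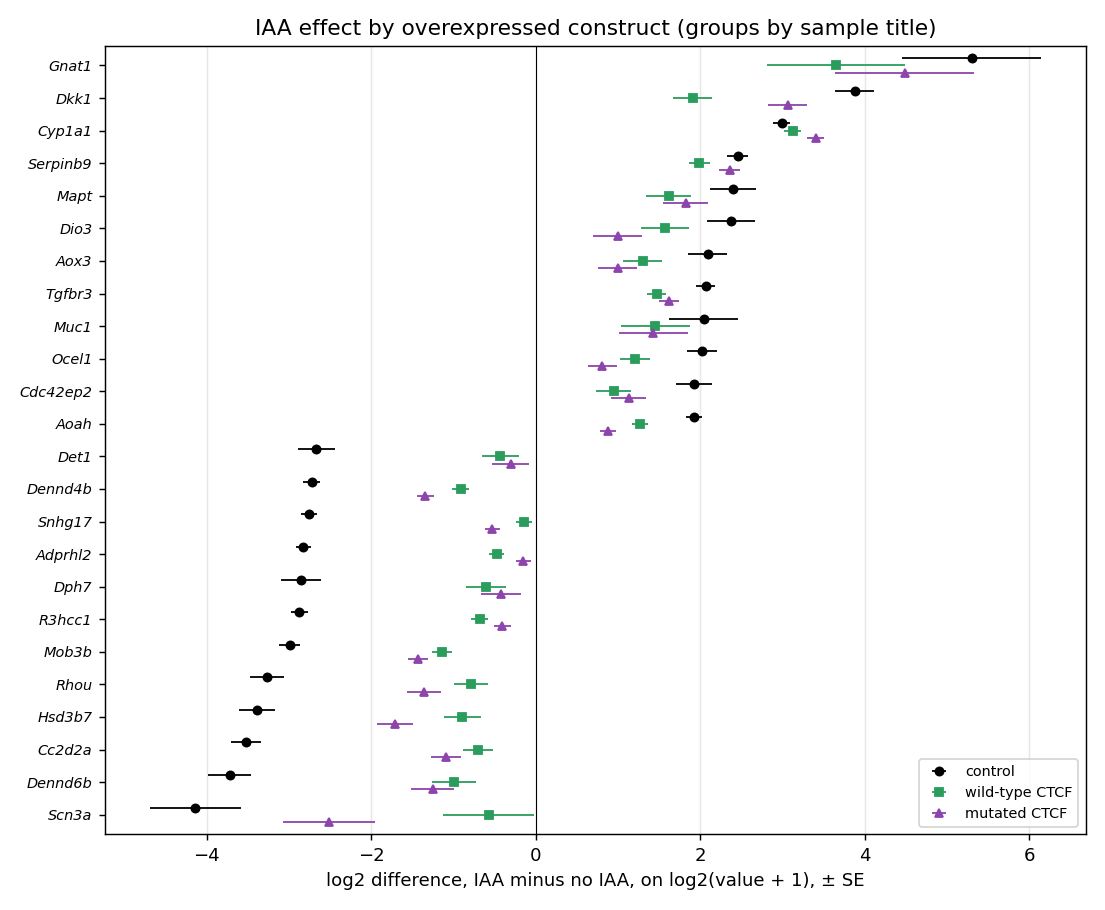
Log2 difference with IAA (horizontal axis, on log2(value + 1), bars ± SE) in control cells (circles), cells with wild-type CTCF (squares) and cells with mutated CTCF (triangles) for the 24 named genes, groups by sample title. The falls lie between -4.14 and -2.67 in control cells, and those with either construct are nearer to 0, while the rises of Cyp1a1 and Serpinb9 are close together in all 3.

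The lists were set side by side in the same way. Over all genes, 11.1% were called higher and 10.3% lower with wild-type CTCF, and 8.31% and 7.92% with mutated CTCF. A difference from the control effect was called for 1.41% of all genes with wild-type and 1.64% with mutated CTCF. Of the 15 protocadherins 0 were called lower with wild-type and 2 with mutated CTCF (medians -0.08 and -0.22), and the difference from the control effect was called for 6 and 2, all positive. Without untreated replicate 1 these were 0 and 0, without treated replicate 1 they were 2 and 1, and without either of the other libraries 2 and 2. Of the NRF2 and glutathione genes 9 of 15 rose with each construct and none had a called difference. Cholesterol synthesis genes fell in 18 of 23 with wild-type and 16 of 23 with mutated CTCF (medians -0.38 and -0.28). The difference from the control effect was called for 2 of them with wild-type, both negative, and for 1 with mutated CTCF, positive. Ribosomal protein genes fell in 30 and 6 of 87, with 3 and 1 called differences. The 6 falls and the 1 called difference with mutated CTCF were below the shares over all genes. The 3 became 0 without untreated replicate 1 and 1 without either treated replicate, and the 1 became 3 without untreated replicate 2 and 0 without either treated replicate. In the hypoxia and glycolysis list 10 of 33 genes had a called negative difference with mutated CTCF (7 to 9 when a library was left out) and 0 with wild-type. Slc16a3 was one of the 10, with a log2 difference of 1.33 in control cells and 0.00 with mutated CTCF. A called positive difference with mutated CTCF was found for 1 gene of this list, Slc2a3 (0.11).

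The same IAA treatment had been given to CTCF AID cells without an overexpression construct, in the serum-free medium and in a serum condition, and RAD21 AID cells had received 1 uM 5-Ph-IAA. Those tables were normalised separately, so values are set side by side with no test between tables. In CTCF AID cells 9.39% of genes were called higher and 8.4% lower after 12 h. Of the 243 rises and 270 falls of at least 2-fold that were tested there, 85 (35.0%) and 156 (57.8%) were called the same way, and 12 and 2 the opposite way. The sign was the same for 424 of these 513 genes (82.7%, against 62.8% of all genes tested in both). In serum (7.73% called higher, 9.25% lower) 78 of 205 rises (38.05%) and 162 of 268 falls (60.4%) were called the same way, and 2 and 5 the opposite way. The sign was the same for 403 of 473 (85.2%, against 60.3%). In RAD21 AID cells (6.66% higher, 6.35% lower) 13 of 194 rises and 14 of 267 falls were called the same way, and 7 and 17 the opposite way. The sign was the same for 237 of 461 (51.4%, against 50.8%). The genes called at least 2-fold in the same direction in both numbered 206 with the CTCF AID table (40.2% of the control list and 35.6% of the other), 169 with serum (35.7% and 57.3%) and 6 with RAD21 (1.30% and 4.58%).

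All 12 of the largest falls were called lower in both other CTCF AID tables, and 1 of the 12, Dennd6b, in RAD21 AID cells. Adprhl2 was at -2.56 in CTCF AID cells, -2.17 in serum and 0.17 in RAD21 AID cells, beside -2.83 in control cells. Of the rises 11 of 12 were called higher in CTCF AID cells, 7 of 10 tested in serum and 0 of 11 tested in RAD21 AID cells. Muc1 was the exception in CTCF AID cells (-0.47). Some genes that changed in control cells stood apart in the other tables. Utf1 was at -2.66 in control cells, -0.62 in CTCF AID cells (limma adjusted p 0.119) and 0.13 in serum. Fst was at -2.001, 0.40 and 0.04, Id3 at -1.66, 0.55 and 0.63, and Dusp6 at -1.37, 0.03 and 0.03. T was at -1.02 in control cells, where it fell, and at 2.95 and 1.70 in the other tables. With the constructs these 5 genes fell as well, and the log2 differences with wild-type and mutated CTCF were -1.55 and -2.27 for Utf1, -1.77 and -2.22 for Fst and -2.04 and -1.05 for T.

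**Figure D5:**
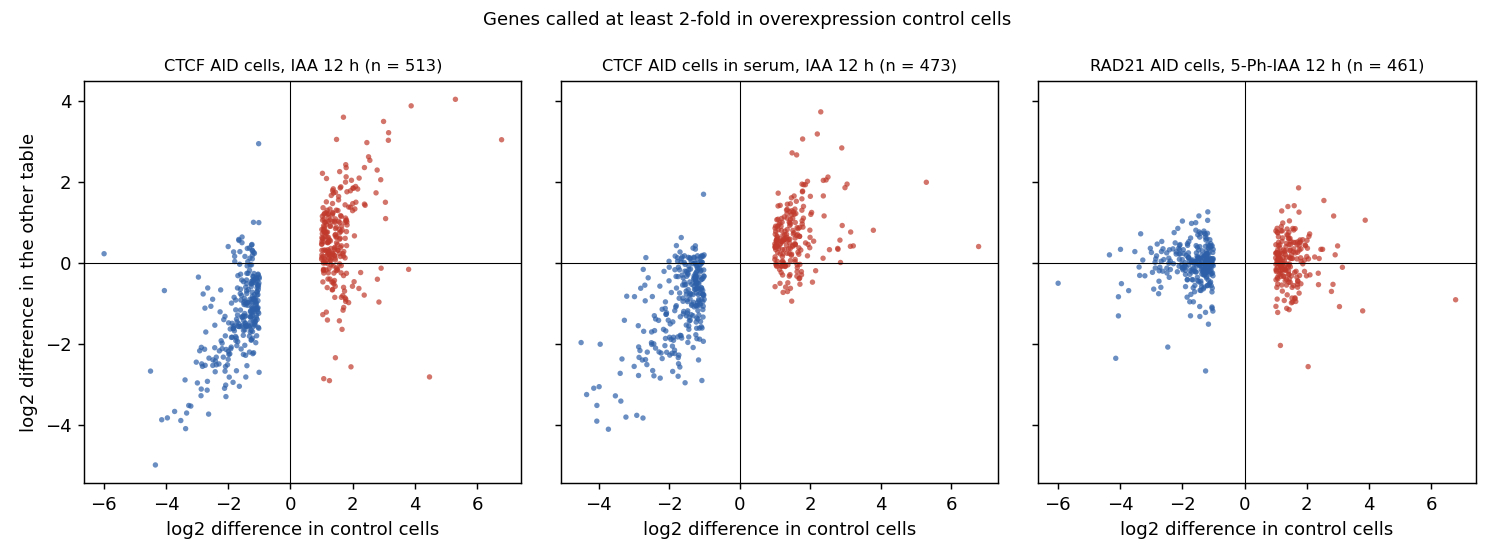
Log2 difference in control cells (horizontal) against that in CTCF AID cells, in CTCF AID cells in serum and in RAD21 AID cells (vertical, 3 panels), 1 point per gene called at least 2-fold in control cells and tested in the other table (513, 473 and 461 genes), rises in red and falls in blue. In the first 2 panels most points lie in the lower left and upper right (82.7% and 85.2%), and in the third 51.4% do.

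Neighbouring genes were compared by their start sites. The nearest tested gene of a gene called higher was itself called higher in 339 of 1784 cases (19.002%), against 12.5% over all genes, and that of a gene called lower was called lower in 17.7% of 1745, against 12.7%. Among rises of at least 2-fold the nearest gene was called higher in 25.8%, and among falls of at least 2-fold it was called lower in 17.1%. Pairs that share no exon gave 19.5% and 17.7%, against 12.7% and 13.1%. Leaving out a library lowered the shares to 13.8% to 15.6% and 10.8% to 14.0%, with fewer genes called in all. Of the named genes, Gnat1 lay 10.2 kb from Slc38a3, an amino acid transporter gene, which went from 3.97 and 5.53 to 63.1 and 38.6 (log2 difference 3.15), and Cyp1a1 lay 4.22 kb from Cyp1a2. The nearest tested gene of Dkk1, Gldc at 374 kb, was called lower (-0.51). The remaining named rises had a nearest tested gene that was not called. Of the 12 falls, Dennd6b had its neighbour Ppp6r2 called lower (-0.81), as had Dph7 with Zmynd19 (-0.23) and Det1 with Aen (-0.15), and Snhg17 lay beside Snhg11, which rose (0.26). The other 8 falls had a nearest tested gene that was not called.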

How the data were processed

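Polyadenylated RNA was sequenced from E14 cells. The 4 tables used hold signal values, normalised counts per gene deposited by the authors with 1 column per library and no unmapped columns (0). The submitters' processing notes name Trim Galore, Bowtie2, STAR, RSEM, DESeq2 and mm10, without roles or versions. Whole reads could not be recovered from the values, so the depth is unknown, no count test was run and no counting interval is given.

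The values were used as deposited, without rescaling. Genes averaging 10 or more across the 12 libraries of the table were kept. Log2(value + 1) was fitted with limma 3.58.1 in R 4.3.3 for all 6 groups of 2 libraries together, with empirical Bayes moderation and a mean trend, and p-values were adjusted by Benjamini and Hochberg over all 13938 genes. Fold changes are on the log2(value + 1) scale, which understates the change of low genes. An IAA effect with a construct minus that in control cells was tested as an interaction. The other tables were fitted by the same steps, each alone. The scripts were first tested on simulated data.

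The genes described are the called genes with the 12 largest increases and the 12 largest decreases, given an average of 100 or more in their higher group, no overlap between groups and a symbol that is not provisional, together with Ctcf, up to 4 called members of each of 38 gene lists with the largest change, and the naive pluripotency factors, apart from some not reported here. The genes and lists were chosen with earlier results of these data known. Gene positions are from GENCODE M21 on GRCm38, which held 14961 of the 14970 genes, and promoters from RefSeq on GRCm38.p6.

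Replicate numbers were not treated as pairs. The alternatives were pseudocounts of 0.5 and 5, no filter or one at 100, trimmed-mean and quantile scaling, a fit of the 4 control libraries alone, no mean trend, a replicate block, a 2-fold minimum, leaving out each control library and, chosen after seeing the data, a fit without the 4 libraries whose labels disagree. The tables not named here were not used here.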

Additional observations from a re-analysis of the deposited data

Results flagged for a closer look

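The results here are called differences between the IAA effect with a construct and that in control cells, tested as interactions. There were 48 for the genes named, and each pair shares the control libraries. Most of these genes were chosen by a large effect in control cells, which favours such calls. The 30 that stayed called whichever control library was left out include most falls. With wild-type and mutated CTCF the differences were 2.73 and 2.47 for Dennd6b, 2.82 and 2.43 for Cc2d2a, 2.48 and 1.91 for Rhou, 1.85 and 1.56 for Mob3b and 2.19 and 2.47 for R3hcc1. They were 2.25 and 2.43 for Dph7, 2.35 and 2.68 for Adprhl2, 2.62 and 2.23 for Snhg17, 1.81 and 1.38 for Dennd4b and 2.24 and 2.37 for Det1. Among list genes they were 1.91 and 2.01 for Mrps2 and 1.25 and 1.37 for Bak1. With one construct only, the differences that stayed called were -1.05 for Aoah, 0.19 for Dppa5a, 0.55 for Cdkn1a and -1.33 for Slc16a3 with mutated CTCF, and 2.50 for Hsd3b7 and -0.16 for Tfcp2l1 with wild-type CTCF.

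The other 18 lost their call with at least 1 control library left out, and their range over those fits follows each value. With wild-type CTCF, Aoah (-0.66, -0.67 to -0.64), Dppa3 (-0.80, -0.83 to -0.78), Pcdhga7 (4.26, 3.90 to 4.62), Pcdhga11 (2.72, 2.48 to 2.96), Peg3 (-0.33, -0.35 to -0.31) and Ndufb7 (0.48, 0.46 to 0.49) lost it whichever library was left out. So did Slc2a3 (0.11, 0.10 to 0.13) and Rpl36a (0.23, 0.22 to 0.25) with mutated CTCF. Without some of the libraries, untreated replicate 1 always among them, Dkk1 (-1.97, -2.03 to -1.90), Utf1 (1.11, 1.08 to 1.14), Sox2 (0.27, 0.24 to 0.30), Pcdhga2 (4.25, 3.74 to 4.76), Pcdhga1 (2.46, 2.21 to 2.72) and Rpl36a (0.28, 0.26 to 0.30) lost it with wild-type CTCF. With mutated CTCF the same held for Ocel1 (-1.21, -1.51 to -0.91), Hsd3b7 (1.68, 1.53 to 1.83), Pcdhga2 (4.27, 3.76 to 4.79) and Pcdhga1 (1.96, 1.70 to 2.22). Whether wild-type and mutated CTCF differ from each other was not tested here.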

How the results depend on the processing

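No called difference among the genes named changed direction in any setting tried, and for other called genes the direction was not compared across settings. Differences near 0 that were not called did change direction, among them Zfp42 (-0.05 to 0.04) and Tbx3 (-0.02 to 0.12) with a library left out. A 2-fold minimum lowered the genes called in control cells to 256 higher and 293 lower, those with a called difference of effects to 71 (wild-type) and 73 (mutated), and the list members called to 25 of 172 higher and 30 of 223 lower. Without a mean trend the differences of effects numbered 123 and 119. Leaving out 1 control library gave 1124 to 1345 genes higher and 1213 to 1284 lower in control cells, the lowest count of rises being without treated replicate 2, and 103 to 141 differences of effects with wild-type CTCF, which were 103 without untreated replicate 1, 127 without treated replicate 1 and 116 without treated replicate 2. The share of genes called higher whose nearest gene was also higher was 22.2% with a filter at 100 (16.1% over all tested), 15.9% in the fit of the 4 control libraries (9.53%) and 13.8% to 15.6% with a library left out (7.78% to 9.44%). That of genes called lower was 21.7% (15.6%), 12.2% (9.55%), 15.1% without a mean trend (10.3%) and 10.8% to 14.0% (8.59% to 9.19%). The 12 rises and 12 falls kept their call in all settings, of which the filter at 100 held 16 of the 24, and of the 86 called genes named in all 80 to 86 kept it in each of the other settings. The labels do not say that a replicate number marks a shared batch or day, and the deviations of same-numbered libraries correlated at 0.0044 between the 2 control groups and at -0.0634 to 0.102 over all pairs of groups. With the replicate block 1757 genes were called higher, and a fit of the 4 control libraries alone called 1361 higher and 1339 lower. Grouping by treatment label leaves no construct effect to test, and a fit of the 4 control libraries alone gives no differences of effects. With 2 libraries a group, the SE of genes below 100 normalised counts (median 0.38) limits what could be called there.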

Other observations

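Genes encoded by the mitochondrial genome, looked at after their values were seen, were called higher with IAA in control cells in 8 of 15 cases and lower in 0, beside 12.8% and 12.5% of all genes. Among genes with a mean of 1000 or more, the shares were 20.4% and 17.7%. The cytochrome b gene mt-Cytb went from 31655 and 30885 to 42298 and 42732 normalised counts (log2 difference 0.44), mt-Nd2, a subunit gene of complex I, from 13881 and 13050.0 to 17429 and 16968 (0.35) and mt-Co1, of cytochrome oxidase, from 173767 and 170367 to 201045 and 203052 (0.23). Nuclear genes of the respiratory chain had 21 of 79 called lower in the same libraries.

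Outside the rule for naming, and chosen after their values were seen, 3 genes were at or near 0 in one group. Gm6361, a provisional gene, was at 0 and 0 normalised counts without IAA and 95.7 and 124 with it (log2 difference 6.78, SE 1.82, limma adjusted p 0.0196), at least 36.7-fold higher against a floor of 3 normalised counts over the group. Eif4e1b, a germ cell relative of the cap-binding protein, was at 1.30 and 0 normalised counts without IAA and 28.8 and 36.8 with it (log2 difference 4.47, SE 0.50, limma adjusted p 0.000105), at least 10.9-fold higher. Gm13610 was at 51.5 and 75.8 normalised counts without IAA and 0 and 0 with it (log2 difference -5.99, SE 1.19, limma adjusted p 0.00395), at least 21.2-fold lower. In CTCF AID cells without a construct, the log2 differences with IAA were -2.82 for Eif4e1b, 0.23 for Gm13610 and 3.04 for Gm6361. That of Gm6361 in serum was 0.40.

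Genes that rose at least 2-fold in control cells were split by what they did with the constructs. Of those also called higher with both constructs, 54 of 88 (61.4%) were called higher in CTCF AID cells, and of those called with neither, 15 of 95 (15.8%). For falls these were 56 of 88 (63.6%) and 53 of 109 (48.6%). The same split over all genes tested, whatever their effect in control cells, gave 40.4% and 6.21% called higher and 28.0% and 6.55% called lower. The difference between rises and falls was not tested.

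Zinc finger genes named Zfp, grouped by symbol only, were called higher in 52 (14.1%, near the 12.8% over all genes) and lower in 25 (6.78%, beside 12.5%) of 369 cases. Both counts were lower whichever control library was left out.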
